A study of Mus musculus with 20 samples.

Results

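Thymic libraries labelled group 2 innate lymphoid cells (ILC2) were compared between irradiated Il25 knockout mice and irradiated wild-type mice. All libraries of the knockout table of raw counts were used, 4 from knockout and 4 from wild-type mice, which is 8 of the 20 libraries of the series, and every gene of that table was considered. All 8 mice were male, and all received 425 rad of sublethal irradiation 3 days before sacrifice, so that irradiation was shared by both groups and no untreated mouse belonged to this cohort. ILC2 had been sorted from thymi digested with Liberase TM plus DNase; the labels give neither the gate nor how the knockout line was made, call the mice young, and do not say that each library came from a separate animal. The p-values therefore measure only the spread between these samples, which may be technical. The other 12 libraries came from wild-type females that were untreated, irradiated, given 0.3 µg of rIL25 (recombinant IL-25) into the thymus, or given both, with 3 libraries each.

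IL-25 is a member of the IL-17 cytokine family that is made by tuft cells, a chemosensory epithelial cell type. It binds a receptor built from IL17RB and IL17RA, which signals through the adaptor ACT1 and TRAF6 to NF-kB. ILC2 that receive IL-25, IL-33 or other alarmins are known to secrete IL-5, IL-13 and amphiregulin. The comparison asks how the ILC2 transcriptome after irradiation differs when Il25 is lacking.

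Il25 itself was counted in each wild-type library, with 3, 7, 17 and 10 counts, and in no knockout library. The knockout count of 0 was out of 11598240 counts in all, against 37 of 15093503 in wild type. A limit of 3 counts over the knockout group corresponds to 0.259 CPM (counts scaled to library size, here the raw total of the group), so that the Il25 level was at least 9.48-fold higher in wild type; this limit covers counting error only. Il25 (chr14:54932695-54935837, plus strand, mm10) was too low for the test used here, and the authors' deposited table gives a log2 ratio of 5.18, wild type over knockout, with an adjusted p of 0.00258. The targeted gene thus followed the labels in all 8 libraries.

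Most genes of the receptor and its signalling chain missed an adjusted p of 0.05. Il17rb, the IL-25-binding receptor chain, was at 77.8, 79.2, 66.5 and 75.3 CPM in the 4 wild-type libraries and at 76.7, 67.3, 86.7 and 69.2 CPM in the 4 knockout libraries. The ranges overlapped almost entirely, with a log2 fold change (knockout over wild type throughout) of 0.004 ± 0.12 (SE) and an adjusted p of 0.994 in edgeR's quasi-likelihood test with Benjamini-Hochberg adjustment over all 8812 genes tested. Il17ra, the shared chain, had a log2 fold change of −0.19 ± 0.15 (edgeR adjusted p = 0.658), and the adaptor Traf3ip2, which encodes ACT1, one of −0.06 ± 0.17 (edgeR adjusted p = 0.934). Of 24 tested genes of the receptor and its signalling chain, 1 was called, at an adjusted p under 0.05, beside 1.77% of all tested genes. The median log2 fold change was −0.05, beside −0.0046 over all genes tested. At an unadjusted p under 0.05, 3 of them were higher and 3 lower, beside 7.23% and 4.52% of all genes tested. The called gene was Zc3h12a, which encodes the mRNA-degrading enzyme Regnase-1, at 28.8 to 37.1 CPM in wild type and 43.6 to 53.3 CPM in knockout (log2 fold change 0.57 ± 0.13, adjusted p = 0.0376). That call was lost when any 1 library other than wild-type replicate 1 was left out, with adjusted p of up to 0.113.

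Without Il25 far more genes were higher than lower after irradiation. In knockout libraries 138 of 8812 tested genes were higher (1.57%) and 18 were lower (0.204%), 156 in all (1.77%), and 92 of the 156 differed at least 2-fold. The levels of the 2 groups did not overlap for 148 of the 156 genes, and for 7.17% of all tested genes. The calls were made from these same libraries, so that a lack of overlap among called genes gives no separate support. The count of higher genes was 89 without wild-type replicate 2, and the count of lower genes was 10 without knockout replicate 3. With a mean of 10 counts or more required in either group, the largest rises were in Prr29, the chemokine gene Ccl1, the heparan sulfate sulfotransferase gene Hs3st1, the tight junction gene Cldn7, the galectin gene Lgals3 and the costimulatory receptor gene Icos. The largest falls were in Pusl1, the cyclin gene Ccng2, C1qtnf12 and Pdlim4. Prr29 was at 0.767, 0.409, 0.543 and 0.625 CPM in wild type and 7.72, 5.33, 4.99 and 6.82 CPM in knockout (log2 fold change 3.37 ± 0.37, adjusted p = 0.000131), and Hs3st1 at 1.02 to 1.56 and 4.33 to 12.1 CPM (log2 fold change 2.68 ± 0.36, adjusted p = 0.000525). At an unadjusted p under 0.05, 637 genes were higher (7.23%) and 398 lower (4.52%). In each gene list below in which edgeR called 0 lower genes, DESeq2 and limma called 0 lower genes too, except for 1 cell cycle gene by each tool.

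**Figure D1:**
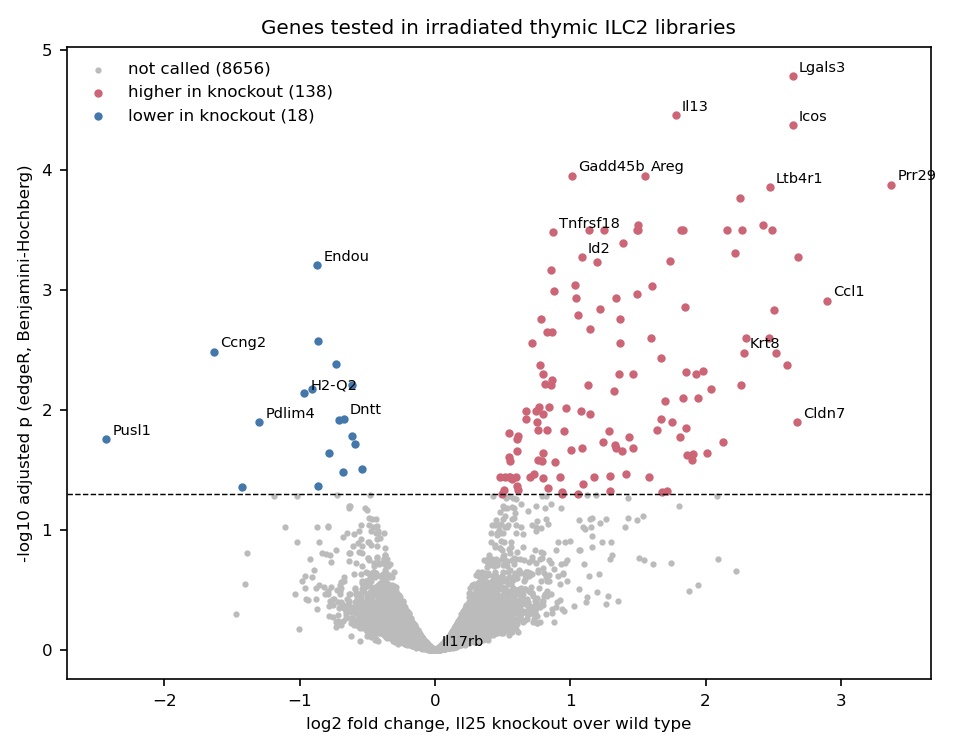
Each point is 1 of the 8812 tested genes, with the log2 fold change of Il25 knockout over wild type on the x axis and −log10 of the edgeR adjusted p on the y axis; the dashed line marks an adjusted p of 0.05. The 138 higher genes (red) outnumber the 18 lower genes (blue), and Lgals3 and Il13 have the smallest adjusted p, while Il17rb lies at 0.004.

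The libraries held between 2093288 and 4420831 counts over 10706 genes. Knockout replicates 2, 3 and 4, at 2093288 to 3031807 counts, were shallower than every wild-type library, at 3201179 to 4420831, whereas knockout replicate 1 held 4149389 counts. When all were thinned to equal depth, 122 genes were called, 104 higher and 18 lower. Pearson correlations of log2 CPM over the tested genes were 0.969 to 0.983 within wild type, 0.971 to 0.982 within knockout and 0.952 to 0.979 between the groups. Knockout replicates 3 and 4 differed from 1 and 2 in some lists described below. The inflammatory ILC2 list summed to 7421, 7382, 10862 and 11272 CPM in knockout replicates 1 to 4. Cytosolic ribosomal protein genes summed to 263315, 262080, 309435 and 332371 CPM in the same order. In these bulk samples, fewer cells of a type and less RNA per cell cannot be told apart.

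Genes listed for ILC2 and for the T lineage were counted in every library, and these levels do not show which cells the RNA came from. In the ILC2 list, the transcription factor gene Gata3 was at 45 to 63.8 CPM in wild type and 44.5 to 57.9 in knockout, and Thy1 at 1368 to 1905 and 1366 to 1779 CPM. Klrg1 was at 0.818 to 3.75 CPM in wild type and 3.62 to 6.66 in knockout, and the IL-33 receptor gene Il1rl1 at 1.79 to 5.31 and 5.99 to 13.6 CPM. The T cell receptor complex gene Cd3g was at 611 to 765 CPM in wild type and 549.8 to 817 in knockout, and the thymocyte gene Dntt at 764 to 1065 and 562 to 681 CPM. Rora, Cd4, Cd8a and the T cell receptor constant genes were not analysed here. The part of T-lineage cells in these libraries was not tested.

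Type 2 effector genes were higher as a group without Il25. Of 13 tested type 2 cytokine and effector genes, 10 were higher, beside 1.57% of all tested genes. None was lower, and the median log2 fold change was 1.55. The 10 were Il5, Il13, Csf2, Areg, Arg1, Calca, Il1rl1, Ccl1, Dgat2 and Furin. Csf2 and Dgat2 lost their calls in 6 and 5 of the 8 fits without 1 library, and 6 members were called when wild-type replicate 1 or replicate 2 was left out and 6 after thinning. At an unadjusted p under 0.05, 11 members were higher and 0 lower, and DESeq2 called 11 higher and limma 10. The summed level of the list ran from 423 to 593 CPM in wild type and from 658 to 716 CPM in knockout.

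Il13, the cytokine that acts on epithelium and smooth muscle, was at 24.6, 19.2, 24.7 and 21.9 CPM in the wild-type libraries and at 59.1, 79.6, 74.4 and 99.1 CPM in the knockout libraries. All knockout libraries exceeded all wild-type libraries, by 3.43-fold in the fit (log2 fold change 1.78 ± 0.16, adjusted p = 3.45e-05). Areg, which encodes the epithelial growth factor amphiregulin, was at 23, 18, 20.1 and 32.5 CPM in wild type and 64.9, 69.9, 68.1 and 68.7 CPM in knockout (log2 fold change 1.55 ± 0.16, adjusted p = 0.00011). The knockout libraries lay within a narrow band for Areg, and no wild-type library reached it. Arg1, an arginine-degrading enzyme of ILC2, was at 1.36 to 2.5 CPM in wild type and 5.31 to 11.5 in knockout (log2 fold change 1.86 ± 0.32, adjusted p = 0.00477).

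Calca, which encodes the neuropeptide CGRP, was at 6.75 to 8.7 CPM in wild type and 19.3 to 28.9 in knockout (log2 fold change 1.5 ± 0.19, adjusted p = 0.000316). Furin, a proprotein convertase, was at 18.7 to 25.6 and 41.4 to 51.6 CPM (log2 fold change 1.14 ± 0.14, adjusted p = 0.000316). Both genes kept groups that did not overlap. Il5, the eosinophil growth factor, was at 0.512, 2.05, 2.44 and 3.75 CPM in wild type and 4.34, 9.99, 7.71 and 10.5 CPM in knockout (log2 fold change 1.87 ± 0.41, adjusted p = 0.0235). This call was weak: it was lost without wild-type replicate 1, 2 or 3 or knockout replicate 2, 3 or 4, with adjusted p of 0.0654 to 0.0851. Il4 had a log2 fold change of 1.8 ± 0.46 and missed the threshold (edgeR adjusted p = 0.0628), and its ranges, 0.614 to 3.44 CPM in wild type and 2.33 to 8.39 in knockout, overlapped. In the authors' deposited DESeq2 result Il4 was higher in the knockout, with an adjusted p of 0.0296. The osteoclast cytokine gene Tnfsf11 was at 303 to 445 and 322 to 404 CPM (log2 fold change −0.01 ± 0.13, edgeR adjusted p = 0.984).

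**Figure D2:**
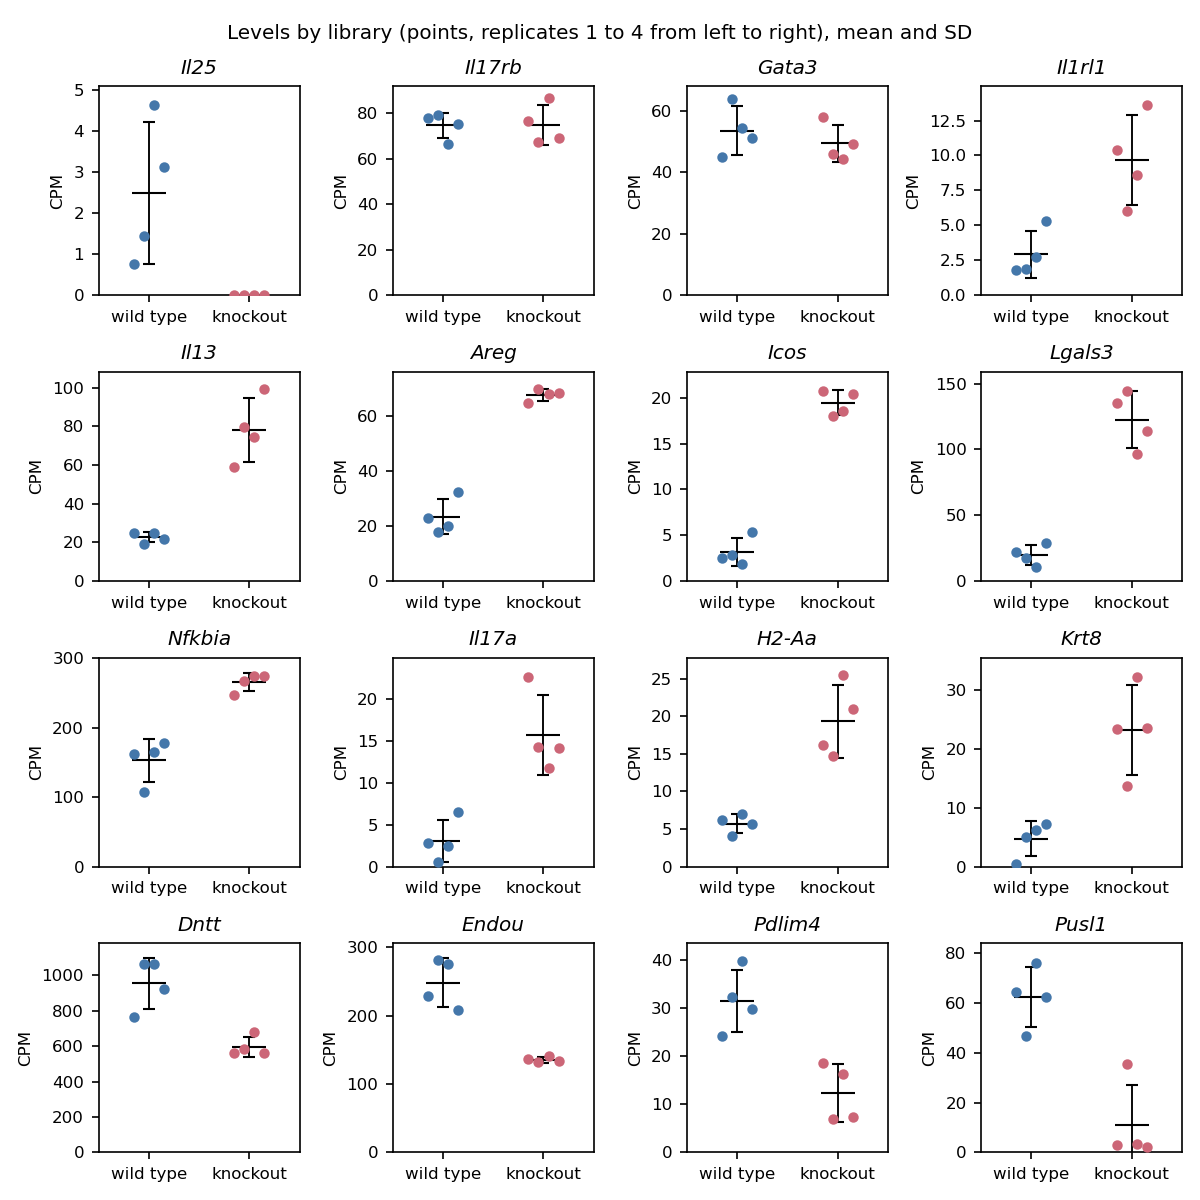
Each panel shows the level of 1 gene in CPM (linear y axis from 0) in the 4 wild-type (blue) and 4 knockout (red) libraries, with the mean and SD in black. Il25 is at 0 in every knockout library and Il17rb and Gata3 overlap between the groups, whereas Il13, Areg, Icos, Lgals3, Nfkbia, H2-Aa, Dntt and Endou do not; knockout replicate 2 stands apart for Pusl1.

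Among receptors that sense alarmins or costimulation, 8 of 19 tested genes were higher without Il25, beside 1.57% of all tested genes. None was lower, and the median log2 fold change was 0.70. Icos, which ILC2 use for survival and cytokine output, was at 2.56, 2.86, 1.9 and 5.31 CPM in wild type and 20.7, 18, 18.6 and 20.5 CPM in knockout (log2 fold change 2.64 ± 0.25, adjusted p = 4.2e-05). Every knockout library lay far above every wild-type library. Il1rl1 was at 1.79, 1.84, 2.72 and 5.31 CPM and 10.4, 5.99, 8.62 and 13.6 CPM (log2 fold change 1.75 ± 0.35, adjusted p = 0.0126), and its call was lost without wild-type replicate 1 (adjusted p = 0.0588), without wild-type replicate 2 (adjusted p = 0.0634) and after thinning (adjusted p = 0.0542). The IL-18 receptor chains, encoded next to Il1rl1, were higher too: Il18r1 was at 0.614 to 2.3 CPM in wild type and 6.03 to 11.3 in knockout (log2 fold change 2.5 ± 0.38, adjusted p = 0.00146). Il18rap was at 0.312 to 1.64 and 4.34 to 6.29 CPM (log2 fold change 2.04 ± 0.37, adjusted p = 0.00659).

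Of the tumour necrosis factor receptors that costimulate lymphocytes, Tnfrsf9, Tnfrsf18 and Tnfrsf25 rose, each without overlap between the groups. Tnfrsf9 (4-1BB) was at 3.33 to 4.998 CPM in wild type and 11.7 to 17.8 in knockout (log2 fold change 1.82 ± 0.23, adjusted p = 0.000316). Tnfrsf18 (GITR) was at 88.4 to 106 and 167 to 197 CPM (log2 fold change 0.87 ± 0.11, adjusted p = 0.000325), and Tnfrsf25 (DR3) at 1.84 to 5.63 and 12.3 to 16.8 CPM (log2 fold change 1.85 ± 0.28, adjusted p = 0.00138). Ramp3, a partner of calcitonin-family receptors, was at 42.5 to 73.4 and 135 to 162 CPM (log2 fold change 1.25 ± 0.15, adjusted p = 0.000316). Not all receptors of the list rose: the TSLP receptor gene Crlf2 had a log2 fold change of 0.2 ± 0.11 (edgeR adjusted p = 0.532) and Ctla4 one of −0.13 ± 0.15 (edgeR adjusted p = 0.787).

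Of 20 tested ILC2 identity genes, 5 were higher (Id2, Il1rl1, Icos, Nfil3 and Arg1), beside 1.57% of all tested genes. Of these, Il1rl1, Icos and Arg1 were also counted in the lists above. None was lower and the median log2 fold change was 0.12. The list held 3 calls without wild-type replicate 1 or 2. At an unadjusted p under 0.05 the list held 8 higher and 4 lower genes. Id2, which represses E proteins and is required for innate lymphoid cells, was at 59.1, 49.1, 55.4 and 63.1 CPM in wild type and 95.3, 136, 106 and 145 CPM in knockout (log2 fold change 1.09 ± 0.15, adjusted p = 0.000525). Gata3, in contrast, had a log2 fold change of −0.11 ± 0.14 (edgeR adjusted p = 0.812). Kit was at 9.24 to 12.8 CPM in wild type and 15 to 19.9 in knockout but missed the threshold (log2 fold change 0.69 ± 0.18, adjusted p = 0.0687), as did Klrg1 (log2 fold change 1.3 ± 0.38, adjusted p = 0.125). At an unadjusted p under 0.05, 6 of 20 tested receptors of the common gamma chain family and their feedback genes were higher and 2 lower. Of the 20, 2 were called higher, beside 1.57% of all tested genes. They were Il2rb, the IL-2 and IL-15 receptor chain, at 7.98 to 14.3 CPM in wild type and 28.3 to 32.5 in knockout (log2 fold change 1.39 ± 0.18, adjusted p = 0.000404), and Cish, a STAT5-induced feedback inhibitor, at 87.7 to 119 and 139 to 185 CPM (log2 fold change 0.67 ± 0.13, adjusted p = 0.0101).

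**Figure D3:**
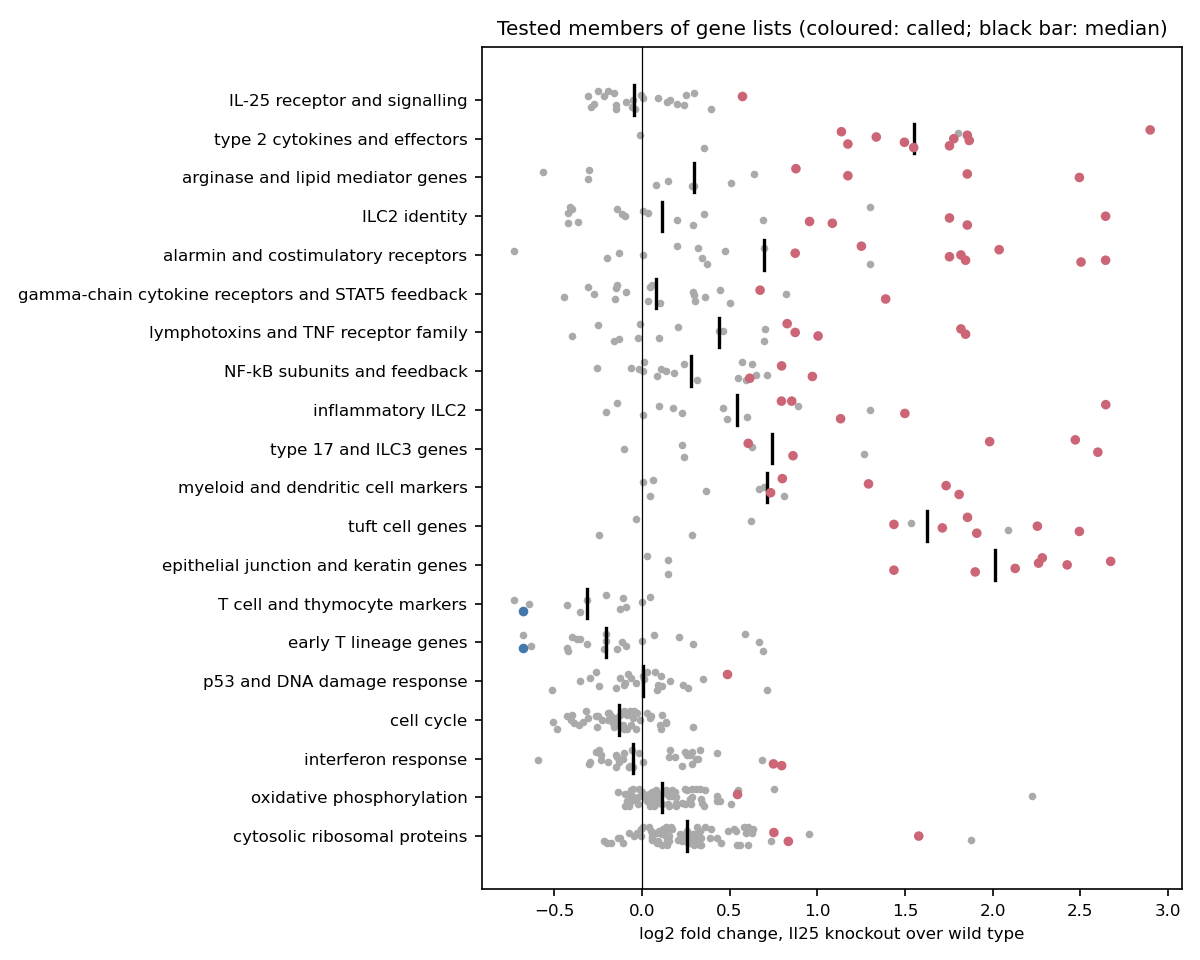
Each point is a tested member of the gene list named on the y axis, placed by its log2 fold change of Il25 knockout over wild type; red points were called higher, blue points lower, and the black bar is the median. The bar of type 2 effectors lies at 1.55 and that of the IL-25 receptor and signalling genes at −0.05; the lists of tuft cell and of epithelial genes were chosen after the data were seen.

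A few genes of NF-kB subunits and of the NF-kB feedback loop were higher without Il25. Of 20 tested NF-kB subunit and feedback genes, 3 were higher, beside 1.57% of all tested genes. None was lower, the median log2 fold change was 0.28, and 1 was called after thinning. Nfkbia, the inhibitor IkBa that NF-kB itself induces, was at 162, 108, 165 and 178 CPM in wild type and 247, 267, 274 and 274 CPM in knockout (log2 fold change 0.8 ± 0.14, adjusted p = 0.00498). Relb, a subunit of the alternative pathway, was at 8.96 to 10.5 and 14.7 to 22.6 CPM (log2 fold change 0.97 ± 0.19, adjusted p = 0.00954) and missed the threshold after thinning (adjusted p = 0.0662), as did Nfkb2 (adjusted p = 0.0505). Its partner Nfkb2 was at 29.4 to 40.7 and 41.3 to 59.1 CPM (log2 fold change 0.61 ± 0.15, adjusted p = 0.046); that call was lost without any 1 library except wild-type replicate 3 or knockout replicate 3, with adjusted p of up to 0.171. Nfkb1 had a log2 fold change of 0.14 ± 0.12 (edgeR adjusted p = 0.703).

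Lymphotoxins signal to the alternative NF-kB pathway in stromal cells. Of 17 tested lymphotoxin and TNF receptor family genes 5 were higher (Lta, Ltb, Tnfrsf9, Tnfrsf18 and Tnfrsf25), beside 1.57% of all tested genes. In the same list 6 genes had a negative log2 fold change. Ltb, lymphotoxin beta, was at 131, 126, 176 and 143 CPM in wild type and 265, 263, 212 and 282 CPM in knockout (log2 fold change 0.83 ± 0.13, adjusted p = 0.00222). Its neighbour Lta was at 10.2 to 21.7 and 22.7 to 35.9 CPM (log2 fold change 1.005 ± 0.22, adjusted p = 0.0214); its call was lost without wild-type replicate 2 or 3 or knockout replicate 1 or 2 (adjusted p of up to 0.0843), after thinning and in limma. Tnf, in the same gene cluster, did not pass the test (log2 fold change −0.02 ± 0.2, edgeR adjusted p = 0.981).

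Promoters of several of these genes hold a kappaB-like motif. They are shown because the motif, spelled GGG, any 2 bases, TT, any base and CC, was found, on either strand, in the 250 bases before the start site of 19 of 106 higher genes with a RefSeq promoter (17.9%). The same motif was in 0 of 15 lower genes with a promoter, in 334 of 7166 tested genes (4.66%) and in 4.00% of all 27025 RefSeq promoters. The sequences below are from RefSeq (GRCm38.p6), 5′ to 3′ on the gene's strand, cut before the first base of the annotated gene, and the capitals mark the motif.
Nfkbia (chr12:55492648-55492897, minus strand): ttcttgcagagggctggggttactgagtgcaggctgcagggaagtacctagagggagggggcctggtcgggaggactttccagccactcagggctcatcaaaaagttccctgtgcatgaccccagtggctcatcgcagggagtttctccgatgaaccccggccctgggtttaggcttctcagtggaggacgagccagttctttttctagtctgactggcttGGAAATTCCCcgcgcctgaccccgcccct
Ltb (chr17:35194257-35194438, plus strand): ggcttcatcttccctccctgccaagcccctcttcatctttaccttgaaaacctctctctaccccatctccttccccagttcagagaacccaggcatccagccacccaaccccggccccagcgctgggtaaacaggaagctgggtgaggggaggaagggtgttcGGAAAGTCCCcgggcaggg
Cxcl2 (chr5:90903649-90903870, plus strand): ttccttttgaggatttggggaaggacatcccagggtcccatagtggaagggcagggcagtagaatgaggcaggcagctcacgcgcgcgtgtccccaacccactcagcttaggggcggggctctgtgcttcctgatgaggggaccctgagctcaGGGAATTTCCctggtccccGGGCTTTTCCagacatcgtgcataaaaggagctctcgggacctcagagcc
Cxcl3 (chr5:90785851-90786100, plus strand): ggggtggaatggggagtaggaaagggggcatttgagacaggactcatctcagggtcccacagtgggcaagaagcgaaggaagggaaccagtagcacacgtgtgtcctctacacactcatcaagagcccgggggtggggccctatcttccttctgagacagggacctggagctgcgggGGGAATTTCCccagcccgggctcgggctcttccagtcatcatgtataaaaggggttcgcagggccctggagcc

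In Nfkbia the motif started 29 bases before the RefSeq start site, in Cxcl3 73 bases and in Cxcl2, where it occurred in 2 places, first at 97 bases. The STAT motif TTCNNNGAA was in 13.2% of higher genes' promoters, 5.9% of tested genes' and 7.18% of all promoters, and shared no bases with the kappaB-like motif in the 4 promoters that held both. The AP-1 motif TGANTCA was in 6.6%, 3.92% and 6.87%, and GATAA in 21.7%, 14.3% and 23%, in the same order. These matches are a description of letters within 250 bases, and no binding was measured.

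The chemokine genes Cxcl2, Cxcl3 and Cxcl10, whose promoters hold the kappaB-like motif, were among the higher genes. In a list of 12 tested chemokines and chemotactic receptors chosen after the data were seen, 7 were higher, beside 1.57% of all tested genes. None was lower. The genes of the neutrophil-attracting chemokines Cxcl2 and Cxcl3 lie 114.3 kb apart on chromosome 5. Cxcl2 was at 7.93, 4.09, 12.2 and 11.2 CPM in wild type and 22.7, 29, 19.5 and 24.1 CPM in knockout (log2 fold change 1.47 ± 0.26, adjusted p = 0.00498), and Cxcl3 at 0.767 to 2.81 and 5.77 to 15.3 CPM (log2 fold change 2.52 ± 0.42, adjusted p = 0.0033). Ccl1, the CCR8 ligand, was at 0.256 to 1.25 and 3.18 to 5.77 CPM (log2 fold change 2.9 ± 0.43, adjusted p = 0.00122). The interferon-inducible Cxcl10 was at 53.6 to 103 and 131 to 239.6 CPM (log2 fold change 1.37 ± 0.21, adjusted p = 0.00175). Ltb4r1, which encodes the leukotriene B4 receptor, was at 2.81, 2.05, 2.72 and 3.75 CPM in wild type and 15.4, 19, 9.53 and 17.8 CPM in knockout (log2 fold change 2.47 ± 0.27, adjusted p = 0.000139).

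Lipid mediator and lipid storage genes rose in part. Of 13 tested arginase and lipid mediator genes, 4 were higher (Arg1, Ltc4s, Dgat1 and Dgat2), beside 1.57% of all tested genes. None was lower, and the median log2 fold change was 0.30. Ltc4s, leukotriene C4 synthase, was at 1.79, 1.23, 2.72 and 2.81 CPM in wild type and 8.93, 9.66, 15.9 and 14.2 CPM in knockout (log2 fold change 2.49 ± 0.31, adjusted p = 0.000316). Dgat1, which makes triacylglycerol, was at 135 to 166 and 220.1 to 316 CPM (log2 fold change 0.88 ± 0.13, adjusted p = 0.00102).

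Genes described in inflammatory ILC2 and in activated lymphocytes were also higher. Of 16 tested members of the inflammatory ILC2 list, 5 were higher, namely Lgals3, S100a4, S100a6, Anxa1 and Capg, beside 1.57% of all tested genes. None was lower. Lgals3, the beta-galactoside-binding lectin galectin-3, was at 22, 17.8, 10.6 and 29.1 CPM in wild type and 135, 145, 96.6 and 114 CPM in knockout (log2 fold change 2.64 ± 0.22, adjusted p = 1.62e-05), the smallest adjusted p of the comparison. S100a4, a calcium-binding protein gene of motile cells, was at 47.8, 29.3, 26.3 and 39.7 CPM and 97.7, 76.2, 124 and 108 CPM (log2 fold change 1.5 ± 0.19, adjusted p = 0.000316). Capg, an actin-capping protein gene, was at 82.1 to 109 and 162 to 191 CPM (log2 fold change 0.85 ± 0.12, adjusted p = 0.000672).

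Type 17 genes showed a similar difference. Of 10 tested type 17 and ILC3 genes, 5 were higher (Il17a, Il22, Cxcr6, Tmem176a and Tmem176b), beside 1.57% of all tested genes. None was lower, and the median log2 fold change was 0.74. Il17a was at 2.81, 0.614, 2.44 and 6.56 CPM in wild type and 22.7, 14.3, 11.8 and 14.2 CPM in knockout (log2 fold change 2.47 ± 0.4, adjusted p = 0.00251), and no knockout library fell within the wild-type range. Il22, a cytokine that acts on epithelium, was at 4.86, 2.25, 1.09 and 5.31 CPM and 9.41, 16, 12.7 and 15.2 CPM (log2 fold change 1.98 ± 0.35, adjusted p = 0.00466). Of the residency and egress genes, Cxcr6 and the integrin gene Itgae were higher, 2 of 15 tested, beside 1.57% of all tested genes. At an unadjusted p under 0.05, 7 of the 15 were higher and 2 lower. Itgae was at 1.36 to 4.6 CPM in wild type and 7.26 to 15.2 in knockout (log2 fold change 1.93 ± 0.34, adjusted p = 0.00496), and Cxcr6 at 0.409 to 4.37 and 5.44 to 17 CPM (log2 fold change 2.6 ± 0.45, adjusted p = 0.00419). Among 7 tested NK and cytotoxic genes, Gzmb (granzyme B) alone was higher, beside 1.57% of all tested genes. Gzmb was at 25.6 to 53.7 and 83.4 to 137 CPM (log2 fold change 1.49 ± 0.22, adjusted p = 0.00106), and Gzma was not called (log2 fold change 0.15 ± 0.21, edgeR adjusted p = 0.835). The cytotoxic list held 2 higher genes without wild-type replicate 3 or 4 or knockout replicate 2.

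Several markers that belong to other cell types followed the genotype. MHC class II genes and other myeloid or dendritic cell markers were higher in 5 of 12 tested genes (H2-Aa, H2-Ab1, H2-Eb1, Cd74 and Ctss), beside 1.57% of all tested genes. None was lower. H2-Aa, a class II antigen-presenting chain, was at 6.14, 4.09, 7.06 and 5.62 CPM in wild type and 16.2, 14.7, 25.4 and 21 CPM in knockout (log2 fold change 1.73 ± 0.24, adjusted p = 0.000564). The count fell to 1 without wild-type replicate 2 or 3, to 2 without wild-type replicate 1 or knockout replicate 1 or 3 and after thinning, and to 3 without knockout replicate 4. The summed level of the list was 368 to 435 CPM in wild type and 480.1 to 586 CPM in knockout, while the macrophage gene Lyz2 was at 9.82 to 10.9 and 9.07 to 13.6 CPM (log2 fold change 0.01 ± 0.2, edgeR adjusted p = 0.996). Csf1r, Itgam and Adgre1 were not analysed here. Of 5 tested mast cell, basophil and eosinophil markers edgeR called 0, while 3 were higher at an unadjusted p under 0.05 and limma called 1. Neither of 2 tested B cell markers was called.

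Some epithelial genes were higher without Il25. In the stromal, epithelial, endothelial and tuft marker list, 3 of 10 tested genes were higher, namely Krt8, Krt18 and Trpm5, beside 1.57% of all tested genes. Only 1 was called without wild-type replicate 3 or knockout replicate 3. Krt8, a simple epithelial keratin, was at 0.512, 5.11, 6.25 and 7.18 CPM in wild type and 23.4, 13.7, 32.2 and 23.6 CPM in knockout (log2 fold change 2.28 ± 0.38, adjusted p = 0.0033). Its partner Krt18 was at 5.63 to 25.6 and 27.3 to 44 CPM (log2 fold change 1.44 ± 0.3, adjusted p = 0.0166); the call was lost without wild-type replicate 2 or 3 or knockout replicate 3, with adjusted p of up to 0.075, and DESeq2 gave 0.0725. Epcam and the medullary gene Aire did not follow, with log2 fold changes of 0.03 ± 0.23 (edgeR adjusted p = 0.975) and −0.32 ± 0.3 (edgeR adjusted p = 0.735). Krt5, a basal epithelial keratin, was at 0 in wild-type replicates 2 and 3 and knockout replicate 4 and at 0.241, 3.33, 0.454 and 0 CPM across the knockout libraries. The list summed to 124 to 174 CPM in wild type and 152 to 239 CPM in knockout.

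In lists chosen after the data were seen, 7 of 10 tested epithelial junction and keratin genes were higher (Cldn7, Elf3, Fam83a, Krt8, Krt18, Krt83 and Muc1), beside 1.57% of all tested genes. The count was 4 without wild-type replicate 2, 3 without knockout replicate 3 and 4 after thinning. Krt83 was at 6.65, 2.25, 2.99 and 5.62 CPM in wild type and 29.4, 22.3, 15.4 and 23.6 CPM in knockout (log2 fold change 2.42 ± 0.29, adjusted p = 0.000283), without overlap. Cldn7 was at 0.256 to 2.19 and 3.66 to 14.2 CPM (log2 fold change 2.67 ± 0.53, adjusted p = 0.0126), and lost its call without wild-type replicate 1 (adjusted p = 0.0508), wild-type replicate 2 (adjusted p = 0.0672) or knockout replicate 3 (adjusted p = 0.0509).

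Tuft cells are a known source of IL-25. In a list also chosen after the data were seen, 6 of 12 tested tuft cell genes were higher in the knockout, beside 1.57% of all tested genes. Among them were Krt18, Ltc4s, Sh2d6, Sh2d7 and Trpm5. The count was 3 without wild-type replicate 1 and 2 without wild-type replicate 2 or knockout replicate 3. Sh2d6 was at 3.58, 4.7, 8.69 and 7.81 CPM in wild type and 28, 22.6, 40.4 and 26.2 CPM in knockout (log2 fold change 2.25 ± 0.26, adjusted p = 0.000171). Trpm5, the taste transduction channel, was at 0.256, 3.07, 2.99 and 5.62 CPM and 10.9, 6.66, 9.98 and 11 CPM (log2 fold change 1.71 ± 0.42, adjusted p = 0.047); its call was lost without any 1 library except wild-type replicate 4 or knockout replicate 2, with adjusted p of up to 0.123. The tuft cell list, Il25 included, summed to 139 to 201 CPM in wild type and 233 to 363 CPM in knockout. The defining tuft factor Pou2f3 was not analysed here, and the part of epithelial or myeloid cells in the other differences was not tested.

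**Figure D4:**
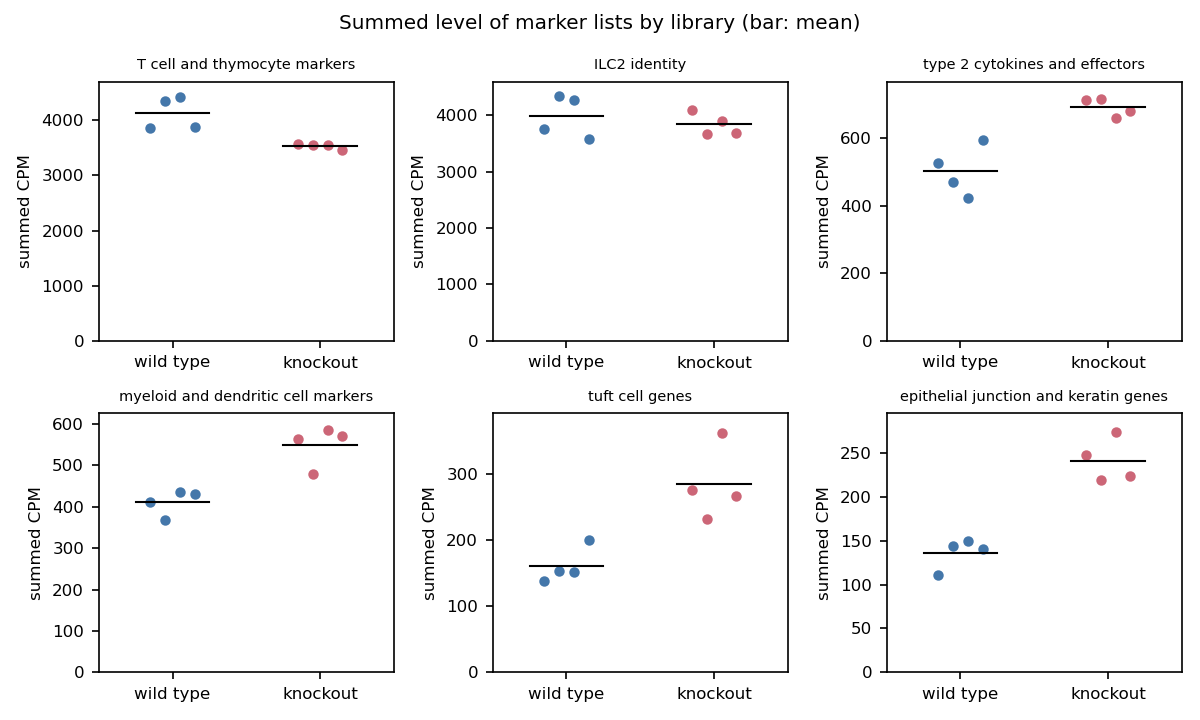
Each panel sums the CPM of all measured members of 1 gene list in each library (y axis from 0), with 4 wild-type libraries in blue, 4 knockout libraries in red and the mean as a bar. T cell and thymocyte markers sum to 3863 to 4427 CPM in wild type and 3454 to 3572 in knockout, ILC2 identity genes overlap, and the type 2, myeloid, tuft and epithelial sums are higher in every knockout library.

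Of the T-lineage genes in the lists Dntt passed the test. Of 13 tested T cell and thymocyte markers, Dntt was lower, beside 0.204% of all tested genes, and 0 were higher by edgeR, DESeq2 or limma. The median log2 fold change of these markers was −0.31, with 11 negative values. At an unadjusted p under 0.05, 5 of them were lower and 0 higher. Of 22 tested early T lineage genes Dntt was again lower and edgeR called 0 higher, DESeq2 and limma each called 1 higher, and at an unadjusted p under 0.05 the list held 7 lower and 3 higher genes. Dntt, the template-independent polymerase of antigen receptor assembly, was at 764, 1065, 1063 and 920.3 CPM in wild type and 562, 582, 681 and 563 CPM in knockout (log2 fold change −0.68 ± 0.13, adjusted p = 0.0117). Every knockout library lay below every wild-type library. Rag1 was at 12.2 to 19.4 CPM in wild type and 8.66 to 10.6 in knockout but was not called (log2 fold change −0.68 ± 0.2, edgeR adjusted p = 0.113). Cd3d, Cd3e and Cd3g, which mark T cells, were not called, with log2 fold changes of −0.09, −0.2 and 0.0021. Of 12 tested progenitor genes edgeR called 0, while 7 were higher at an unadjusted p under 0.05 and DESeq2 and limma each called 1.

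The genes that were lower without Il25 were few, and those with the largest falls are described next. Ccng2, an atypical cyclin gene linked to cell cycle arrest, was at 17.1, 18.4, 10.9 and 15.6 CPM in wild type and 6.27, 4.33, 2.27 and 6.82 CPM in knockout (log2 fold change −1.63 ± 0.27, adjusted p = 0.00323). Endou, an endoribonuclease gene, was at 228, 281, 275 and 209 CPM in wild type and 137, 132, 141 and 133 CPM in knockout (log2 fold change −0.87 ± 0.12, adjusted p = 0.000618), the smallest adjusted p among lower genes. Pdlim4, a PDZ and LIM domain gene, was at 24, 32.3, 39.7 and 29.7 CPM and 18.6, 6.99, 16.3 and 7.34 CPM (log2 fold change −1.3 ± 0.26, adjusted p = 0.0126), and lost its call without wild-type replicate 3 (adjusted p = 0.0558). These 3 genes had no overlap between the groups.

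Gfra1, a co-receptor for glial cell line-derived neurotrophic factor, was at 50.7 to 59.8 CPM in wild type and 31 to 36.2 in knockout (log2 fold change −0.73 ± 0.12, adjusted p = 0.00408). H2-Q2, a class Ib MHC gene with close paralogs, was at 68.5 to 112 and 33.6 to 55.7 CPM (log2 fold change −0.97 ± 0.18, adjusted p = 0.00719), Myzap at 26.2 to 30.4 and 11 to 18.8 CPM (log2 fold change −0.91 ± 0.17, adjusted p = 0.00659), and Drc1, a ciliary dynein regulator, at 43.5 to 54.1 and 25.3 to 34.5 CPM (log2 fold change −0.71 ± 0.14, adjusted p = 0.012). Dgkeos, an RNA antisense to Dgke, was at 44 to 58.1 and 22.6 to 28.2 CPM (log2 fold change −0.86 ± 0.14, adjusted p = 0.00263); whether the counting used strand is not given in the sources used here. Calls were less firm for the somatostatin receptor gene Sstr2 (log2 fold change −0.79 ± 0.17, adjusted p = 0.0227) and the transporter gene Slc16a5 (log2 fold change −0.86 ± 0.21, adjusted p = 0.0424). With 1 library left out, Sstr2 kept its call without wild-type replicate 2 or 4 and otherwise had adjusted p of up to 0.0975, and Slc16a5 kept it without wild-type replicate 4 or knockout replicate 1 and otherwise had adjusted p of up to 0.152. After thinning Myzap was not called either (adjusted p = 0.111).

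Pusl1 and C1qtnf12, which lie 70.5 kb apart on chromosome 4, were low in 3 knockout libraries. Pusl1 was at 64.2, 46.8, 75.8 and 62.5 CPM in wild type and 3.14, 35.3, 3.18 and 2.1 CPM in knockout (log2 fold change −2.43 ± 0.51, adjusted p = 0.0175). C1qtnf12 was at 37.9, 31.3, 39.1 and 37.5 CPM in wild type and 5.31, 29.97, 9.07 and 9.44 CPM in knockout (log2 fold change −1.43 ± 0.34, adjusted p = 0.0435). For both genes knockout replicate 2 was near the wild-type libraries, while the other knockout libraries were far below them. Pusl1 was not called without wild-type replicate 1 (adjusted p = 0.0518), wild-type replicate 3 (adjusted p = 0.0674) or knockout replicate 3 (adjusted p = 0.0701), or by DESeq2 (adjusted p = 0.192). C1qtnf12 kept its call without knockout replicate 2 and lost its call without any other single library (adjusted p of up to 0.148).

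Early response genes were higher in a few members. Of 27 tested immediate early and dissociation stress genes, 3 were higher, beside 1.57% of all tested genes. None was lower, the median log2 fold change was 0.18, and 6 were called without wild-type replicate 4. Gadd45b, a stress-induced gene, was at 87, 79.6, 79.6 and 79.97 CPM in wild type and 160.4, 172, 151 and 174 CPM in knockout (log2 fold change 1.01 ± 0.11, adjusted p = 0.00011). Atf3 was at 18.7 to 30.9 and 48.8 to 61.3 CPM (log2 fold change 1.04 ± 0.15, adjusted p = 0.00115), and Fosb at 55.8 to 66.8 and 97.6 to 117 CPM (log2 fold change 0.71 ± 0.12, adjusted p = 0.00277). These 3 genes did not overlap between the groups, and tissue dissociation is known to induce such genes.

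The called share of radiation damage response genes was close to that of all genes. Of 26 tested p53 target and DNA damage genes, the cell cycle inhibitor gene Cdkn1a alone was called, beside 1.77% of all tested genes, at 382, 358, 357 and 428 CPM in wild type and 524, 566, 539.9 and 500.4 CPM in knockout (log2 fold change 0.48 ± 0.11, adjusted p = 0.0356), and the median log2 fold change of the list was 0.0068. The Cdkn1a groups did not overlap, but the call was lost without any 1 library other than wild-type replicate 4 (adjusted p of up to 0.119). Of 46 tested cell cycle genes edgeR called 0, with a median log2 fold change of −0.13 and 37 negative values; 10 were lower at an unadjusted p under 0.05, and DESeq2 and limma each called 1 lower. Mki67, a proliferation marker, was at 71.4 to 137 CPM in wild type and 67.3 to 82.9 in knockout (log2 fold change −0.4 ± 0.18, adjusted p = 0.39). Of 19 tested BCL2 family genes 1 was called, beside 1.77% of all tested genes. It was the pro-death member Bik, higher at 0.818 to 1.87 and 3.66 to 6.35 CPM (log2 fold change 1.94 ± 0.36, adjusted p = 0.00791).

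In lists of broad cellular programmes, calls are read against the 1.57% of all tested genes called higher. Of 81 tested cytosolic ribosomal protein genes 3 were higher (Rps9 and Rps4x among them) and 70 had a positive log2 fold change. EdgeR, DESeq2 and limma each called 0 of 66 mitochondrial ribosomal, 40 proteasome, 30 chaperone, 60 splicing, 18 glycolytic and 19 cholesterol synthesis genes. At an unadjusted p under 0.05 these 6 lists held 4, 4, 7, 4, 3 and 0 genes in the same order, beside 11.7% of all tested genes. Rps9 was at 1634 to 2635 CPM in wild type and 3202 to 3869.8 in knockout (log2 fold change 0.75 ± 0.15, adjusted p = 0.0126), and lost its call without wild-type replicate 1 (adjusted p = 0.0614). At an unadjusted p under 0.05 21 of the 81 ribosomal genes and 13 of 75 oxidative phosphorylation genes were higher, beside 7.23% of all tested genes, and 59 of the 75 had a positive log2 fold change. The called count of the cytosolic ribosomal list ran from 0 without wild-type replicate 1 to 6 without knockout replicate 2. It was 1 without wild-type replicate 2 or 3 or knockout replicate 3 or 4. Ribosomal pseudogenes can share reads with their parent genes. Of 75 oxidative phosphorylation genes Ndufa2 was higher (log2 fold change 0.54 ± 0.13, adjusted p = 0.0356), of 57 translation factors Eif4ebp1 (log2 fold change 0.76 ± 0.17, adjusted p = 0.0259), and of 7 GIMAP genes Gimap3 (log2 fold change 1.41 ± 0.33, adjusted p = 0.0342); each of these calls was lost in at least 5 of the 8 fits without 1 library. Of 37 interferon response genes Ifi27l2a was higher (log2 fold change 0.75 ± 0.14, adjusted p = 0.01), as was Slfn2 (log2 fold change 0.8 ± 0.19, adjusted p = 0.0363), whose call was lost without any 1 library except knockout replicate 1 or 2.

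The irradiation response itself was measured in the wild-type females, which share no library with the knockout comparison, and not in the males. The untreated and irradiated female libraries were shallower, at 495079 to 799814 counts. Levels in irradiated wild-type mice also differed: Cdkn1a averaged 46.8 CPM in females and 381 in males, and Cd52 547 and 48.9 CPM. Cdkn1a was not called for irradiation in females (log2 fold change 0.09 ± 0.3, edgeR adjusted p = 0.913). In the females, 301 of 7482 tested genes differed between irradiated and untreated libraries (4.02%), 166 higher (2.22%) and 135 lower (1.8%). That count was 86 without untreated replicate 3, 148 without untreated replicate 1, 146 without irradiated replicate 1 and 109 without irradiated replicate 3. Of the 154 genes that were higher after irradiation and tested in both experiments, 19 were higher in the knockout (12.3%) and 6 were lower (3.9%); of all 6980 genes tested in both, 1.28% were higher and 0.215% lower. Of the 125 genes that were lower after irradiation, Nrgn was higher and Dntt lower in the knockout. Across the 6980 genes the Pearson correlation of both log2 fold changes was 0.18, given as a description since genes are not independent replicates. Seen from the knockout, the 89 higher genes that were tested in both had a median log2 fold change of 0.87 after irradiation, and 65 of them were positive, beside a median of 0.01 over all 6980 genes. The 15 lower genes had a median of 0.44, with 10 positive values, so that a positive irradiation value was not particular to the higher genes.

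Genes that irradiation raised and that were still higher without Il25 included S100a4, Il2rb, Id2, Cxcr6 and Itgae. S100a4 was at 10.6, 2.81 and 15.7 CPM in untreated and 95.7, 139 and 165 CPM in irradiated females (log2 fold change 3.71 ± 0.57, adjusted p = 0.000772). Id2 was at 33.4, 11.2 and 53.2 CPM in untreated and 105, 270.1 and 203 CPM in irradiated females (log2 fold change 2.52 ± 0.45, adjusted p = 0.00275). Both were above every untreated library in every irradiated library, and among irradiated males both were higher in knockout than in wild type, as given above. The 6 genes raised by irradiation and lower in the knockout were Drc1, Endou, Gfra1, Myzap, Pdlim4 and Slc16a5. Pdlim4 was at 4.56, 0 and 2.42 CPM in untreated and 86, 45 and 89.2 CPM in irradiated females (log2 fold change 4.92 ± 0.63, adjusted p = 7.32e-05). Drc1 was at 0, 5.62 and 3.63 CPM and 89.2, 60.7 and 71.3 CPM (log2 fold change 4.48 ± 0.5, adjusted p = 2.33e-05). Endou was at 164, 309 and 204 CPM and 519, 501 and 473 CPM (log2 fold change 1.14 ± 0.24, adjusted p = 0.00881), but its call was lost without untreated replicate 1 (adjusted p = 0.0651) or untreated replicate 3 (adjusted p = 0.0616). Dntt fell after irradiation in females, from 2370.0, 2029 and 2061 CPM to 1039.6, 922 and 936 CPM (log2 fold change −1.16 ± 0.19, adjusted p = 0.0014).

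**Figure D5:**
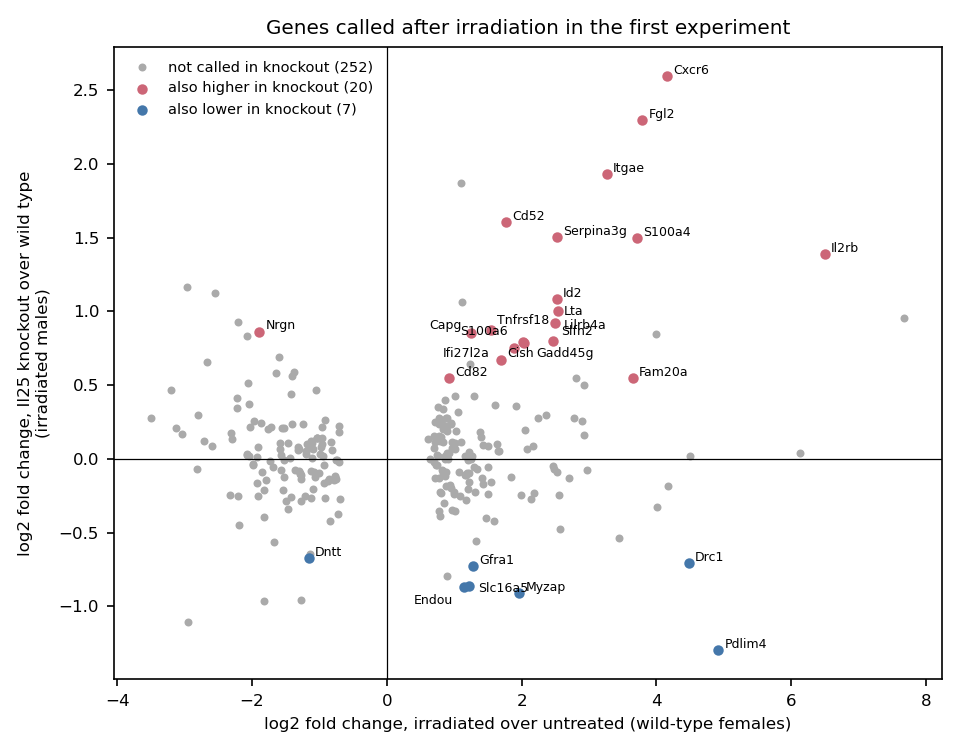
Genes called between irradiated and untreated wild-type females are placed by that log2 fold change (x axis) and by the log2 fold change of Il25 knockout over wild type among irradiated males (y axis). Of those tested in both experiments 20 were also higher in the knockout (red) and 7 lower (blue), and Pdlim4, Drc1, Endou, Gfra1, Myzap and Slc16a5 lie at the lower right.

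Genes called for added IL-25 were set beside those called for the lack of Il25. In irradiated females given rIL25, against irradiated females, 48 of 7482 tested genes were higher (0.642%) and 140 lower (1.87%), 188 in all (2.51%). The count of 188 was 83 without irradiated replicate 1, 93 without irradiated replicate 3, 125 without the first, 358 without the second and 42 without the third library given both. Of the 42 higher genes tested in both experiments, 4 were also higher in the knockout (9.52%, beside 1.28% of all 6980 genes tested in both), namely Il13, Cish, Dgat2 and Cxcl10, and 0 were lower by edgeR, DESeq2 or limma (3 at an unadjusted p under 0.05). Il13 was at 8.11, 25.4 and 26.8 CPM in irradiated females and 54.1, 125 and 305 CPM with rIL25 added (log2 fold change 3.1 ± 0.69, adjusted p = 0.0172). This call was lost without irradiated replicate 1 (adjusted p = 0.114) or 3 (adjusted p = 0.0536) or without the third library given both (adjusted p = 0.194). Cish was at 109, 95.9 and 86.9 CPM and 218, 194 and 238 CPM (log2 fold change 1.15 ± 0.31, adjusted p = 0.0459), and kept its call only without the second library given both, with adjusted p of up to 0.19 otherwise. The calls of Dgat2 and Cxcl10 were lost in 5 and 4 of the 6 fits without 1 library. Of the 130 genes lower with rIL25, Rps4x was higher in the knockout. The 89 genes higher in the knockout had a median log2 fold change of 0.61 with rIL25, and 69 of them were positive, beside a median of 0.0079 over all 6980 genes. The 15 genes lower in the knockout had a median of 0.18 with rIL25, with 9 positive values. Across the 6980 genes the Pearson correlation of the knockout and rIL25 log2 fold changes was −0.014, given as a description. The irradiated female libraries were shared by the irradiation and the rIL25 comparison, and sex, cohort and table differed between these experiments and the knockout comparison, so that only directions are set side by side.

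The authors' deposited table for the same libraries holds 195 genes at an adjusted p under 0.05, 170 higher and 25 lower in the knockout. The 147 genes called in both made up 94.2% of the genes called here and 75.4% of those in the authors' deposited table, all with the same sign.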

How the data were processed

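RNA was measured by bulk MARS-seq, which counts transcript 3′ ends, so levels of different genes are not compared. The deposited knockout table holds raw counts of molecular identifiers per gene, the authors' normalized signal and the authors' log2 fold changes and p-values; the treatment table likewise holds deposited counts. Per the submitters' processing notes, bcl2fastq, cutadapt, STAR 2.5.2b, HTSeq and DESeq2 were used with mm10; settings and annotation are not given in the sources used here. Every per-library count column matched a label.

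Counts were tested with edgeR 4.0.16 (R 4.3.3; quasi-likelihood F-test, filterByExpr with a minimum count of 10, TMM scaling), with Benjamini-Hochberg adjustment over all genes tested. Calls needed an adjusted p below 0.05. CPM used TMM-scaled totals, and each SE is the log2 fold change over the square root of F. The treatment groups shared 1 fit. Alternatives used DESeq2 1.42.0, limma 3.58.1 (voom with sample quality weights), other filters and scaling, a replicate block, each library left out and, chosen after seeing the data, thinning to equal depth. The scripts were tested on simulated data. In the 8 libraries 3 counts correspond to 0.614 to 1.57 CPM per library, for counting error only.

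Gene positions came from GENCODE vM21 (mm10) and promoters from RefSeq (GRCm38.p6), matched by symbol. The comparison and the 36 gene lists were chosen with earlier results of these data known, and 3 more lists were chosen after seeing these values. The rule for named genes took from the calls the 12 largest rises and 12 largest falls whose mean reached 10 counts in either group, up to 3 called members of each list, and 16 fixed genes. Other genes in the text were chosen after their values were seen. A few genes are not reported here.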

Additional observations from a re-analysis of the deposited data

Results flagged for a closer look

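In 9 of 170 combinations of a named gene and a group, 1 library stood apart from the other 3 by Dixon's test at the 95% level, and chance flags about 1 in 20. Pusl1 in knockout replicate 2 was at 35.3 CPM against 2.098 to 3.18 CPM in the other knockout libraries. C1qtnf12, 70.5 kb from it on chromosome 4, was at 29.97 CPM in the same library against 5.31 to 9.44 CPM. Knockout replicate 2 also stood apart for Cxcl3, at 15.3 CPM against 5.77 to 7.26, and for the glycolytic gene Ldha, at 1353 CPM against 1564 to 1579.

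Dntt was highest in knockout replicate 3, at 681 CPM against 562 to 582, and Dgkeos lowest in knockout replicate 4, at 22.6 CPM against 27.97 to 28.2. Among wild-type libraries, replicate 1 was lowest for Fosb, at 55.8 CPM against 65.5 to 66.8, and highest for Gadd45b, at 86.98 CPM against 79.6 to 79.97. Wild-type replicate 2 was lowest for Gimap3, at 1.23 CPM against 3.44 to 3.803.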

How the results depend on the processing

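Of the 156 genes called, 86 lost no call in any fit without 1 library that tested them (77 higher and 9 lower). For 84 genes no call was lost under any alternative that tested them. A gene that a filter left out of a fit was not counted as lost there, and a minimum count of 30 left 112 calls. Leaving out each library in turn gave 89 to 155 higher and 10 to 23 lower genes, 105 to 174 in all. The totals were 155 with DESeq2's size factors, 186 with no filter, 112 at a minimum count of 30, 177 with DESeq2, 179 with limma and 122 after thinning, with 136, 164, 96, 153, 157 and 104 higher genes in the same order. At least 2-fold differences left 92 genes, 88 higher and 4 lower. Numbers did not pair the libraries, since same-numbered libraries had deviations correlated at −0.06, −0.18, −0.20 and 0.25; with the replicate block 151 genes were called, 133 higher and 18 lower, 135 of them shared. The genes called for irradiation that were also called in the knockout numbered 27 and ranged from 21 to 28. Irradiation called 541 genes with limma, and 86 to 370 without 1 library; added rIL25 after irradiation called 125 genes with only the 2 groups, and 42 to 358 without 1 library. At a minimum count of 30 the lists held 5 higher type 2 effectors, 5 alarmin receptors, 3 chemokines, 3 tuft cell and 4 epithelial genes, against 10, 8, 7, 6 and 7, and with no filter 2 cytotoxic genes against 1. No called gene changed sign in the alternative fits of the knockout comparison. The causes of these shifts were not tested. Depth limits genes near 1 CPM.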

Other observations

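Some called genes lay near each other. Of the 155 called genes with a GENCODE position, 25 pairs that followed each other among the called genes lay within 200 kb. In 22 of these pairs both genes moved in the same direction, and genes that were not called may lie between them. Since 138 of the 156 called genes were higher, most pairs share a direction wherever they lie, and the share of pairs among other genes was not computed. Il13 and Il5 are 86.1 kb apart on chromosome 11, and both were higher without Il25. Il1rl1, Il18r1 and Il18rap form a cluster of cytokine receptors on chromosome 1, and all 3 were higher. Endou, Rapgef3 and Hdac7 lie together on chromosome 15, and all 3 were lower, although Rapgef3 lost its call in 6 and Hdac7 in 4 of the 8 fits without 1 library. By contrast, the keratin genes Krt8 and Krt18, 23.7 kb apart on the same chromosome, were higher. Tmem176a and Tmem176b, both higher, overlap each other, so that their reads may not be fully separable.

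Near the targeted locus, 3 of 113 tested genes within 10 Mb of Il25 on chromosome 14 were called (2.65%), beside 1.77% of all tested genes. They were Ltb4r1, Gzmb and Lgals3, all higher without Il25. Flanking sequence carried along with the targeted allele was not tested, and the strain in which the line was made is not given in the sources used here.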
